A study of Mus musculus with 17 samples.

Results

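The results below concern the induction of FoxA1 in mouse embryonic stem (ES) cells: 3 RNA-seq libraries taken after 24 h without doxycycline (Dox) set against 2 taken before Dox was removed (0 h). These 5 libraries of the iFoxA1 line were chosen by their labels among 17 from 5 lines, and no expression value was used to choose them. The line descends from MC1 ES cells of the 129S6/SvEvTac strain. Its Rosa26 locus, which is permissive for expression, holds the FoxA1 open reading frame with a C-terminal His6-FLAG tag and a puromycin resistance gene. The locus also holds a promoter that Dox represses. At 0 h the cells grew in DMEM on gelatin with 15% fetal bovine serum (FBS), 1000 U/ml leukemia inhibitory factor (LIF), 0.2 µg/ml Dox and 1.0 µg/ml puromycin. At 24 h they had been washed free of Dox and kept in a DMEM differentiation medium containing 10% FBS, for which the labels name no LIF. The 4 other lines, iFoxC1, iFoxG1, iFoxL2 and iFoxP3, each hold the factor of their name in the same way, with 1 library each at 0 h and 2 each at 24 h, and there is no line without a transgene. A change from 0 h to 24 h in iFoxA1 therefore combines FoxA1, the loss of Dox and the new medium, and these cannot be told apart within the line.

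FoxA1 is a forkhead transcription factor of the endoderm, notochord and floor plate. It can bind its sites in closed chromatin, and in the adult it is known for its work with nuclear hormone receptors in liver, prostate and mammary epithelium and for the ducts and alveoli of the lung. Mouse ES cells in serum and LIF are in a naive pluripotent state, and without LIF they pass to a formative state like the early post-implantation epiblast before they choose a germ layer. Sonic hedgehog (Shh), secreted by the notochord and floor plate, is a textbook gene of FoxA-expressing cells.

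The iFoxA1 libraries held 20.2 and 19.7 M estimated counts at 0 h and 19.3, 17.7 and 37.2 M at 24 h. Levels are given as CPM, a read count divided by the library total after TMM adjustment, always with the 0 h replicates 1 and 2 first and the 24 h replicates 1, 2 and 3 after them. The third replicate at 24 h stood apart in depth, as did the second 24 h replicate of each other line (32.9 to 35.7 M, against 18.4 to 22.2 M for their other libraries). Against replicate 1 its counts gave a chi-square of 172 per degree of freedom, compared with 3.32 between replicates 1 and 2 at 24 h and 2.8 between the replicates at 0 h. Most programs below are therefore also given for replicates 1 and 2 and for replicate 3 apart. Both checks use the same 0 h libraries, and replicate 3 as a lone library is assumed to vary like the others. The labels do not say whether replicates came from separate cultures, so what the p-values weigh is the spread from library to library. With edgeR's quasi-likelihood test and a Benjamini-Hochberg adjusted p under 0.05, 1312 of 19819 genes rose (6.62%) and 821 fell (4.14%) from 0 h to 24 h. These percentages are the background against which the counts in each list below should be read, and the median log2 change over all genes was 0.01. The filter on low counts removed 37 of 54 keratins, 38 of 92 potassium channel genes and 32 of 83 metalloproteases and inhibitors. It also removed 12 of 37 neuroendocrine, 10 of 31 intestinal and 7 of 20 lung genes. A gene with enough counts in a single library was kept, so members high only in iFoxA1 at 24 h could enter. The effect of this on the shares was not tested. Fits that left out 1 library gave 322 to 1995 rising and 229 to 1296 falling genes, the fewest without 0 h replicate 1 and the most without one of the iFoxL2 libraries at 24 h. The same 13 fits give the ranges printed beside most lists, and among the genes given with values, calls that ended in them are named at the end of each paragraph. In replicates 1 and 2 alone 7.37% of genes rose and 5.38% fell, and in replicate 3 alone 8.77% rose and 5.35% fell. The line-specific change is the change in iFoxA1 minus the mean change of the 4 other lines, and by this measure 3.09% of genes passed, 1.39% higher and 1.70% lower.

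Foxa1 itself (ENSMUSG00000035451.7, mm10 chromosome 12, 57540628 to 57546916, minus strand) read 1.87 and 3.05 CPM at 0 h and 236, 252 and 76.7 CPM at 24 h. All 3 libraries at 24 h lay far above both at 0 h, and replicate 3 held 31.4% of the mean of replicates 1 and 2. The log2 change was 6.26 ± 0.68 (SE), adjusted p = 6.23e-04. Reads of the transgene and of the endogenous gene are counted together. With Dox present at 0 h, the other lines read 0.04965 to 0.2844 CPM, below both iFoxA1 libraries. The 0 h libraries are therefore not free of Foxa1 reads, and the origin of these reads was not tested. In the other lines the 24 h libraries read 0.0581 to 0.488 CPM, and the line-specific change was 5.29 ± 1.52 (SE), adjusted p = 0.105.

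Among the markers that define ES cells, none of Pou5f1, Sox2, Nanog, Zfp42 and Dppa5a passed the test. Pou5f1, the central factor of pluripotency, read 1072 and 1064 CPM at 0 h and 711, 720.1 and 1236 CPM at 24 h. The summed level of the 5 markers was 3562 and 3565 CPM at 0 h, 1804 and 1835 CPM in replicates 1 and 2 at 24 h and 3829.9 CPM in replicate 3, so that replicates 1 and 2 were below and replicate 3 above the 0 h level. Fibroblast markers summed to 12.7 CPM in each 0 h library and 17.9 to 19.1 CPM at 24 h, with 1 of 7 tested rising (Thy1) and Dcn and Postn never above 0.1 CPM. Smooth muscle markers summed to 17.1 and 17.8 CPM at 0 h and 16.3 to 18.0 CPM at 24 h, and none of 5 passed. Markers of primitive endoderm (5 tested), trophoblast (4 tested) and the 2-cell-like state (4 tested) had no member past the threshold. Trophoblast markers summed to 7.85 to 9.00 CPM at 0 h, 14.3 to 14.4 CPM in replicates 1 and 2 and 24.7 CPM in replicate 3. In a wider list of 20 tested trophoblast genes 5 rose and 1 fell, with 6 rising and 1 falling in replicates 1 and 2. Its median log2 change was 0.236 in replicates 1 and 2 and 0.964 in replicate 3. The 2-cell-like markers summed to 17.1 CPM in replicate 3, against 3.06 to 7.45 CPM in the 4 other iFoxA1 libraries. Of the blood and endothelial markers, Vwf rose and Pecam1, which ES cells also express, fell, while Hbb-bt had 0 counts in all 5 libraries.

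**Figure D1:**
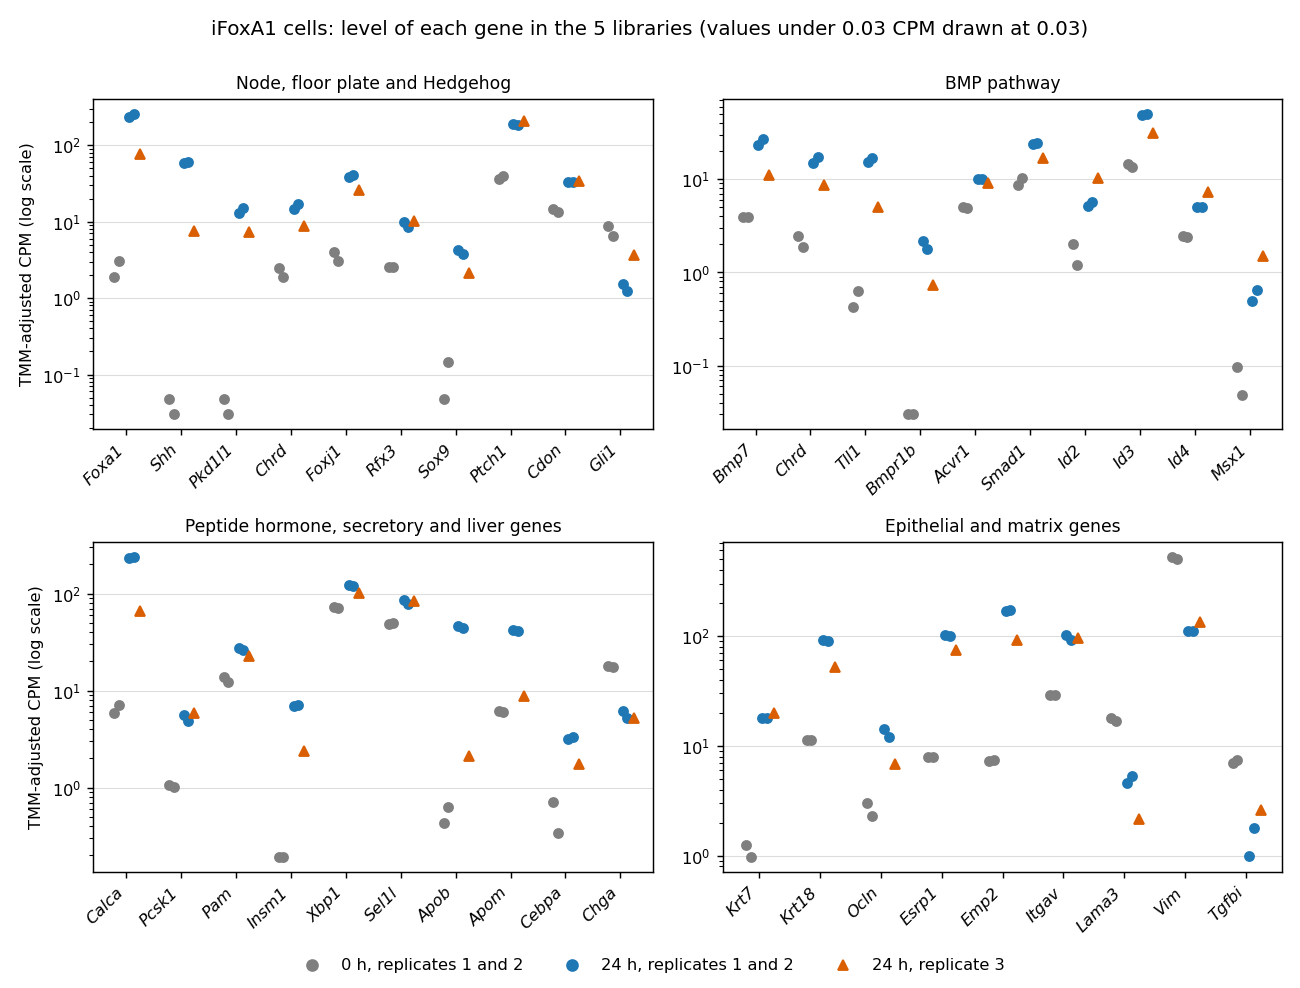
Level of 38 genes in each of the 5 iFoxA1 libraries, in TMM-adjusted CPM on a log scale. Each point is 1 library: grey for 0 h, blue for 24 h replicates 1 and 2, orange triangles for 24 h replicate 3. Shh and Calca are far higher in all 24 h libraries than at 0 h but lower in replicate 3 than in replicates 1 and 2, Apob lies nearer to 0 h in replicate 3, and Ptch1, Cdon, Krt7 and Pcsk1 stand at about the same level in all 3.

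Among the genes that rose most were a homeobox factor of the embryonic node and a morphogen. Lhx1, a LIM homeobox factor of the node and head organiser (mm10 chromosome 11, 84518284 to 84525535, minus strand), read 0 and 0 CPM at 0 h and 69.4, 70.2 and 4.97 CPM at 24 h. Lhx1 had 0 counts at 0 h. With 3 counts as the floor of the 0 h group, its rise was at least 549-fold over the 24 h libraries pooled (adjusted p = 0.0110). Replicate 3 held 7.11% of the level of replicates 1 and 2, so this bound does not hold for it alone. Shh (mm10 chromosome 5, 28456815 to 28467256, minus strand) read 0.0478 and 0 CPM at 0 h and 58.6, 59.5 and 7.63 CPM at 24 h. Its only count at 0 h gives a ratio of 1457 over the 24 h libraries pooled. The 95% exact counting interval is 261 to 57584, and edgeR's adjusted p was 0.00306. In the other lines at 24 h, Lhx1 read 0.0503 to 2.9 CPM and Shh 0 to 0.767 CPM. The line-specific test of both had adjusted p = 1.00, in a fit where the 0 h libraries hold almost no count of either. Lhx1 did not pass when 0 h replicate 1 or 2 was left out (adjusted p from 0.0874 to 0.0921). Shh did not pass when 0 h replicate 2 was left out (adjusted p = 0.0545).

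Other large rises were spread over lipid enzymes, transporters, receptors and a clock gene. Pla2g7, the secreted hydrolase of platelet-activating factor, went from 0.574 and 0.436 to 106, 93 and 81.3 CPM (log2 change 7.51 ± 0.33 (SE), adjusted p = 1.41e-05). Enpp2, which makes lysophosphatidic acid, went from 0.143 and 0.145 to 27.6, 25.9 and 16.3 CPM (7.28 ± 0.40 (SE), adjusted p = 2.69e-05). The other lines read 10.2 to 69.4 CPM of Enpp2 at 24 h, and its line-specific test did not pass (adjusted p = 0.539). Slc38a3, a glutamine transporter, went from 1.2 and 1.31 to 79.2, 83 and 89.8 CPM (6.06 ± 0.46 (SE), adjusted p = 1.31e-04). In CPM, replicate 3 stood near the level of replicates 1 and 2 for Pla2g7 and Slc38a3, and at 60.9% of them for Enpp2. Per2, a repressor of the circadian clock, went from 0.478 and 0.484 to 53.8, 54.5 and 75 CPM (6.97 ± 0.36 (SE), adjusted p = 2.62e-05). At 24 h Per2 was highest in replicate 3 in CPM but lowest there in TPM (12.15, 12.16 and 10.61). No library of another line exceeded 2.54 CPM of Per2 at 24 h. Its line-specific test (adjusted p = 1.00) could not decide, as the other lines held only 0 to 0.379 CPM at 0 h (2.58 ± 103 (SE)). Tacr1, the receptor of substance P, went from 0.0478 and 0 to 7.49, 7.68 and 5.85 CPM. Cldn10, a tight junction claudin, went from 0.0478 and 0 to 4.71, 4.03 and 6.95 CPM. Gpld1, a phospholipase that cuts GPI anchors, went from 0 and 0.339 to 19.2, 19.6 and 9.67 CPM. Popdc2, a membrane protein of heart and muscle, went from 0.0957 and 0.436 to 22.9, 23.5 and 4.76 CPM. Lypd6b, an Ly6-type membrane protein, had 0 counts at 0 h and 11.1, 11.9 and 3.78 CPM at 24 h, at least 109-fold higher. Kctd12b read 0.0478 and 0.0968 CPM at 0 h and 15.7, 14 and 8.37 CPM at 24 h, against 1.11 to 16.7 CPM in the other lines at 24 h. Duxbl2 read 0.191 and 0.0968 CPM at 0 h and 2.28, 8.38 and 15.5 CPM at 24 h, and its near-identical copies can share its reads. The other lines read 3.71 to 17.5 CPM of Duxbl2 at 24 h, and its line-specific test did not pass (adjusted p = 0.118). They read 2.71 to 8.73 CPM of Pla2g7, 1.92 to 38.4 CPM of Slc38a3 and 0.125 to 4.95 CPM of Gpld1. Tacr1, Cldn10, Popdc2 and Lypd6b reached at most 0.973 CPM there. Gpld1 did not pass when 0 h replicate 1 was left out (adjusted p = 0.0530). Lypd6b and Duxbl2 did not pass when 0 h replicate 1 or 2 was left out (adjusted p from 0.0824 to 0.133).

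Genes of LIF signalling and of posterior development were among the 15 largest falls. Cdx1, a homeobox factor of posterior development, fell from 8.18 and 7.12 to 0, 0.0537 and 0.236 CPM (log2 change -6.04 ± 0.81 (SE), adjusted p = 0.00173). Bcl3, a nuclear partner of NF-kappa-B that STAT3 activates in ES cells, fell from 30.7 and 30.8 to 1.54, 1.83 and 2.37 CPM (-4.0 ± 0.23 (SE), adjusted p = 2.69e-05). Osm, a cytokine of the LIF family, fell from 5.79 and 4.99 to 0.0496, 0.107 and 0.414 CPM (-4.66 ± 1.05 (SE), adjusted p = 0.0216). Mras, a small GTPase, fell from 57.4 and 58.9 to 1.44, 1.72 and 3.16 CPM (-4.76 ± 0.39 (SE), adjusted p = 1.79e-04). All 24 h libraries lay below both at 0 h for each of these genes. Fgf17, a growth factor of the FGF8 group, fell from 6.46 and 6.97 to 0.446, 0.215 and 0.591 CPM. Fgf17 had a line-specific change of -3.12 ± 0.60 (SE), adjusted p = 0.0295. Spic, an ETS factor, fell from 5.26 and 5.13 to 0.0496, 0.161 and 0.473 CPM. Cybb, a subunit of the phagocyte NADPH oxidase, fell from 6.32 and 7.12 to 0.298, 0.430 and 0.236 CPM. Calml4, a calmodulin-like protein of the brush border, fell from 11.2 and 9.78 to 0.793, 0.967 and 0.473 CPM. Calml4 had a line-specific change of -2.24 ± 0.38 (SE), adjusted p = 0.0194. The 7 others were Slc51a, Igsf21, Olfr1459, Myo1f, Crxos, Trpm1 and Myh13, with log2 changes from -5.28 to -4.03. Of the 15, only Fgf17, Calml4 and Bcl3 passed the line-specific test, and the value for Bcl3 is given further down. Mras read 0.967 to 2.35 CPM in the other lines at 24 h (line-specific change -0.33 ± 0.45 (SE), adjusted p = 0.825). Cybb read 0.0503 to 1.34 CPM there and Spic 0.403 to 0.793 CPM. Olfr1459 may share its reads with a sister copy. Osm did not pass when 0 h replicate 1 or 2 was left out (adjusted p from 0.0920 to 0.111). Osm also failed without 24 h replicate 1 or 2 (adjusted p from 0.0729 to 0.0782). Fgf17 lost its line-specific call in 10 of the 13 fits (highest adjusted p = 0.166, without 0 h replicate 2). Calml4 lost its line-specific call in 3 of the 13 fits (highest adjusted p = 0.138, without 0 h replicate 1).

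The promoters of a few of these genes are shown because FoxA proteins recognise the core sequence TGTTTAC, whose reverse strand reads GTAAACA. The sequences are from RefSeq (GRCm38.p6, the build also called mm10), from 250 bases before to 50 after the RefSeq start site, 5′ to 3′ on the gene's strand, and a match on either strand is in capitals. Foxa1 is the endogenous gene, not the transgene, and its RefSeq start lies inside the longer GENCODE range given above. Pcsk1, a protease that matures peptide hormones, and Calca, one such hormone gene, rose together as described further down.
Foxa1 (chr12:57546062-57546361, minus strand): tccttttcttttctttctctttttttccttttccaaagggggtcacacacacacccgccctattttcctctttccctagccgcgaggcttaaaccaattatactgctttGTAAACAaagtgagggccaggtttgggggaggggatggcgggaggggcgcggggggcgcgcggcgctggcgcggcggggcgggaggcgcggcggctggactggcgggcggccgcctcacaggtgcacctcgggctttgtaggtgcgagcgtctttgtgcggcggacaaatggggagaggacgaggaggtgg
Pcsk1 (chr13:75089607-75089906, plus strand): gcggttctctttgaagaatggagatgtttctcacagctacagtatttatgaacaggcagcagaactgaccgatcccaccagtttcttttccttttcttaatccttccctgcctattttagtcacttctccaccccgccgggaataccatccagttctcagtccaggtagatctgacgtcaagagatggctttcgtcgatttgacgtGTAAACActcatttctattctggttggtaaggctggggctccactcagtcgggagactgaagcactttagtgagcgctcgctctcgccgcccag
Calca (chr7:114636308-114636607, minus strand): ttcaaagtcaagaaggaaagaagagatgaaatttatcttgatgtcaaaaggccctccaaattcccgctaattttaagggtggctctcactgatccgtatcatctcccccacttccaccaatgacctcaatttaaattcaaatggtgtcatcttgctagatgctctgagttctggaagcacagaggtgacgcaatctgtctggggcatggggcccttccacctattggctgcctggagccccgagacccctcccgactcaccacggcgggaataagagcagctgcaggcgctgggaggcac
Lhx1 (chr11:84525485-84525784, minus strand): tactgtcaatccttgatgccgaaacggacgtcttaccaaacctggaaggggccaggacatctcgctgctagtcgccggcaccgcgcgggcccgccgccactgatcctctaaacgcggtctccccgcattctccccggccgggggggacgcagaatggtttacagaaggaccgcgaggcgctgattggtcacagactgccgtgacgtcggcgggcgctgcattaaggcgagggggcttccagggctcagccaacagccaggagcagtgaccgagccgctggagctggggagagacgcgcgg
The match in Foxa1 starts at -141 and that in Pcsk1 at -44, counted from the RefSeq start site, and Calca and Lhx1 held none in these windows. A match was found in 43 of the 1014 risen genes with a promoter in the table (4.24%), in 20 of 568 that fell (3.52%) and in 417 of all 12754 tested (3.27%). Among genes with a higher line-specific change it was 11 of 214 (5.14%), and among those with a lower one 6 of 238 (2.52%). Over all 27025 genes of the table the share was 4.05%. Of the 15 largest rises 8 had a promoter in the table and 1 held a match. Of the 15 largest falls 12 had a promoter and 0 held a match. The promoters shown were a chosen few and do not stand for these shares. A match of these letters is a description and not a binding site, and Shh had no entry in the table.

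Of 23 tested genes of the node, notochord and floor plate, 7 rose and 1 fell (7 rising and 1 falling in replicates 1 and 2, 8 and 1 in replicate 3, 6 to 8 and 0 to 1 with 1 library left out), with a median log2 change of 0.87. By the line-specific test 2 were higher and 1 was lower. Besides Shh, the risen members were the ciliary factors Foxj1 and Rfx3, the node channel Pkd1l1, the BMP antagonist Chrd, the SOX factor Sox9 and the simple-epithelium keratin Krt18. Foxj1, the master factor of motile cilia, read 3.97 and 3.05 CPM at 0 h and 37.9, 40.8 and 26.2 CPM at 24 h (3.31 ± 0.36 (SE), adjusted p = 6.43e-04). Rfx3, its partner in ciliary transcription, went from 2.54 and 2.52 to 9.77, 8.44 and 10.2 CPM (1.90 ± 0.28 (SE), adjusted p = 0.00304). Pkd1l1, which senses flow in the node, read 0.0478 and 0 CPM at 0 h and 12.9, 15.2 and 7.39 CPM at 24 h, and its line-specific test passed (adjusted p = 0.0180). No 24 h library of these 3 genes reached down to the 0 h level. Chrd, a secreted antagonist of BMPs, read 2.44 and 1.89 CPM at 0 h and 14.8, 17.2 and 8.69 CPM at 24 h (2.64 ± 0.33 (SE), adjusted p = 0.00124). Chrd had a line-specific change of 2.43 ± 0.37 (SE), adjusted p = 0.0124. Sox9 rose from 0.0478 and 0.145 to 4.21, 3.81 and 2.13 CPM (5.06 ± 0.79 (SE), adjusted p = 0.00370). Car3, a carbonic anhydrase, fell from 4.4 and 3.58 to 1.34, 1.61 and 0.857 CPM. Of the defining factors, T did not pass and read 0.765 and 0.774 CPM at 0 h and 0.496, 0.215 and 0.384 CPM at 24 h. Foxa2 did not pass either and read 2.39 and 2.32 CPM at 0 h and 1.78, 1.61 and 4.05 CPM at 24 h. Noto was at or near 0 throughout, with at most 0.0537 CPM. The median of the list was 0.70 in replicates 1 and 2 and 0.78 in replicate 3. Sox9 did not pass when 0 h replicate 1 was left out (adjusted p = 0.0628). Car3 did not pass when 0 h replicate 1 or 2 was left out (adjusted p from 0.0652 to 0.123). Pkd1l1 and Chrd lost their line-specific calls without 0 h replicate 1 or 2 (adjusted p from 0.0581 to 0.133).

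The motile cilium genes did not move as a block. Of 23 tested, 4 rose and 2 fell (4 rising and 3 falling in replicates 1 and 2, 5 and 2 in replicate 3, 2 to 5 and 2 to 3 with 1 library left out). Beside Foxj1 and Rfx3 the risen members were Cfap43 (from 1.34 and 1.26 to 4.36, 4.41 and 4.52 CPM) and Drc1 (from 0.622 and 0.968 to 1.89, 1.61 and 2.75 CPM), both of the axoneme. In the same structure Hydin, a protein of the central pair, fell from 27.3 and 26 to 6.15, 6.29 and 5.67 CPM, and Ak7, an axonemal adenylate kinase, fell from 31.2 and 30.4 to 3.32, 3.38 and 3.96 CPM (-3.11 ± 0.14 (SE), adjusted p = 1.41e-05). Cfap43 and Drc1 did not pass when 0 h replicate 1 or 2 was left out (adjusted p from 0.106 to 0.291). Drc1 also failed without 24 h replicate 1 or 3 or any 1 of 6 libraries of other lines (adjusted p from 0.0522 to 0.0669).

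In the Hedgehog pathway the ligand and the parts that receive it rose while a transcriptional effector fell. Of 25 genes tested 5 rose and 1 fell (6 rising and 2 falling in replicates 1 and 2, 4 and 2 in replicate 3, 3 to 6 and 0 to 4 with 1 library left out). By the line-specific test 1 was higher and 3 were lower. Ptch1, the receptor of Shh and itself a classic target of the pathway, read 35.8 and 39.8 CPM at 0 h and 189, 181 and 209 CPM at 24 h (2.35 ± 0.36 (SE), adjusted p = 0.00321). Cdon, a co-receptor, read 14.5 and 13.5 CPM at 0 h and 32.7, 32.7 and 34.1 CPM at 24 h (1.25 ± 0.12 (SE), adjusted p = 4.23e-04). Cdon had a line-specific change of 0.80 ± 0.15 (SE), adjusted p = 0.0251. Ptch1 did not pass the line-specific test. Both genes stood as high in replicate 3 as in replicates 1 and 2, and Shh was far lower there. Whether their levels are linked was not tested. Smo, the signal transducer, rose from 20.2 and 20 to 42.5, 44.3 and 34.8 CPM (1.01 ± 0.13 (SE), adjusted p = 0.00157). Lrp2, an endocytic receptor that binds Shh, rose from 99.8 and 99.9 to 302, 309 and 130.3 CPM (1.31 ± 0.36 (SE), adjusted p = 0.0458). Gli1, the effector that is usually the most direct readout of the pathway, fell from 8.8 and 6.58 to 1.54, 1.24 and 3.64 CPM (-1.83 ± 0.40 (SE), adjusted p = 0.0189). Gli1 had a line-specific change of -2.28 ± 0.49 (SE), adjusted p = 0.0406. Gli2, the main activator, read 51.6 and 55.8 CPM at 0 h and 11.9, 11.7 and 30.4 CPM at 24 h and passed in replicates 1 and 2 (-2.18, adjusted p = 0.0377) but not in replicate 3 (-0.82, adjusted p = 0.416). Hhip, another target, read 0.574 and 0.532 CPM at 0 h and 1.59, 1.45 and 1.0 CPM at 24 h and did not pass (adjusted p = 0.168). Ptch1 did not pass when 0 h replicate 1 was left out (adjusted p = 0.0546). Lrp2 and Gli1 did not pass when 0 h replicate 1 or 2 was left out (adjusted p from 0.0713 to 0.255). Lrp2 also failed without 24 h replicate 1 or 2 or any 1 of 6 libraries of other lines (adjusted p from 0.0659 to 0.120). Gli1 did not pass without 24 h replicate 1 (adjusted p = 0.0652). Cdon lost its line-specific call in 8 of the 13 fits (highest adjusted p = 0.203, without 0 h replicate 2). Gli1 lost its line-specific call in 10 of the 13 fits (highest adjusted p = 0.228, without 0 h replicate 1).

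Transcription factors and signals of the anterior mesendoderm and endoderm rose in 6 of 25 tested and fell in 0 (8 rising and 0 falling in replicates 1 and 2, 5 and 0 in replicate 3, 1 to 8 and 0 to 1 with 1 library left out). Lhx1, Shh and Sox9 were among them. Prox1, a homeobox factor of liver and lymphatic progenitors, rose from 0.478 and 0.532 to 5.01, 4.67 and 2.07 CPM (2.94 ± 0.70 (SE), adjusted p = 0.0269). Otx2, a head organiser and epiblast factor, rose from 8.76 and 7.5 to 41, 37.4 and 163 CPM (3.31 ± 0.90 (SE), adjusted p = 0.0450). Cldn6, a claudin of early embryonic epithelia, rose from 15.2 and 15.3 to 53.2, 56.2 and 44.9 CPM (1.75 ± 0.43 (SE), adjusted p = 0.0321). Prox1 was highest in replicates 1 and 2 and Otx2 in replicate 3. Cer1, a secreted Nodal antagonist of anterior endoderm, read 0.0957 and 0 CPM at 0 h and 3.92, 4.19 and 0.355 CPM at 24 h and passed in replicates 1 and 2 (adjusted p = 0.0225) but not in replicate 3 (adjusted p = 0.247). Gata6, an endoderm GATA factor, read 11.6 and 13.5 CPM at 0 h and 25.1, 23.8 and 15.6 CPM at 24 h and did likewise (adjusted p = 0.0152 and 0.388). The core endoderm factors did not pass. Sox17 read 6.32 and 5.76 CPM at 0 h and 4.26, 4.3 and 1.98 CPM at 24 h. Gata4 read 12.9 and 13.1 CPM at 0 h and 10.4, 9.99 and 8.81 CPM at 24 h and Hnf4a 3.88 and 3.82 CPM at 0 h and 3.08, 3.38 and 2.93 CPM at 24 h. Among 29 primitive and visceral endoderm genes 5 rose and 2 fell (5 rising and 3 falling in replicates 1 and 2, 2 and 2 in replicate 3, 0 to 6 and 0 to 3 with 1 library left out). The largest rise was that of Plat, tissue plasminogen activator, which read 0.909 and 0.726 CPM at 0 h and 43.9, 48.8 and 13.5 CPM at 24 h (5.43 ± 0.98 (SE), adjusted p = 0.00779). Prox1, Otx2, Cldn6 and Plat did not pass when 0 h replicate 1 or 2 was left out (adjusted p from 0.0963 to 0.268). Prox1 also failed without 24 h replicate 1 or 2 (adjusted p from 0.0684 to 0.0717). Otx2 did not pass without 24 h replicate 1 or 3 or any 1 of 6 libraries of other lines (adjusted p from 0.0530 to 0.0720). Cldn6 did not pass without 24 h replicate 1 or 2 or any 1 of 4 libraries of other lines (adjusted p from 0.0506 to 0.0783).

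Liver genes were mostly too low to test, 17 of 31 being removed by the filter on low counts. Of the 14 tested, 4 rose and 0 fell (5 rising and 1 falling in replicates 1 and 2, 1 and 0 in replicate 3, 0 to 5 and 0 to 1 with 1 library left out), and this count rests on members high enough to be tested. Apob, the structural protein of lipoproteins, read 0.431 and 0.629 CPM at 0 h and 46.4, 44 and 2.13 CPM at 24 h (5.85 ± 1.27 (SE), adjusted p = 0.0185). Apom, a carrier of sphingosine 1-phosphate in HDL, read 6.17 and 5.95 CPM at 0 h and 41.7, 41.3 and 8.9 CPM at 24 h (2.33 ± 0.60 (SE), adjusted p = 0.0364). In both, replicate 3 lay much nearer to 0 h than replicates 1 and 2 did, at 4.71% of their level for Apob and 21.4% for Apom, and in replicate 3 alone neither passed (adjusted p = 0.0626 and 0.289). Cebpa, a hepatocyte and fat cell factor, rose from 0.718 and 0.339 to 3.17, 3.33 and 1.77 CPM (2.37 ± 0.53 (SE), adjusted p = 0.0209). Tat, tyrosine aminotransferase of the hepatocyte, rose from 0.143 and 0.194 to 1.83, 1.83 and 1.8 CPM (3.39 ± 0.77 (SE), adjusted p = 0.0265). Tat had a line-specific change of 5.30 ± 1.06 (SE), adjusted p = 0.0388. Alb had at most 0.0537 CPM in any of the 5 libraries, and Ttr, transthyretin, read 0.0478 and 0.0968 CPM at 0 h and 0.595, 1.02 and 0.296 CPM at 24 h without passing. Apob, Apom, Cebpa and Tat did not pass when 0 h replicate 1 or 2 was left out (adjusted p from 0.0770 to 0.231). Apom also failed without 24 h replicate 1 or 2 or any 1 of 4 libraries of other lines (adjusted p from 0.0559 to 0.0951). Cebpa and Tat did not pass without 24 h replicate 1 or 2 (adjusted p from 0.0604 to 0.0749). Tat lost its line-specific call in 8 of the 13 fits (highest adjusted p = 0.216, without 0 h replicate 1).

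In the BMP pathway 10 of 32 genes rose and none fell (11 rising and 1 falling in replicates 1 and 2, 12 and 0 in replicate 3, 3 to 11 and 0 to 1 with 1 library left out), and the risen members included a ligand, an antagonist, receptors, an effector and targets. By the line-specific test 3 were higher and 1 was lower. Bmp7, a ligand made by the notochord and floor plate, read 3.97 and 3.92 CPM at 0 h and 23.1, 26.8 and 11 CPM at 24 h (2.36 ± 0.41 (SE), adjusted p = 0.00631). Bmp7 had a line-specific change of 2.27 ± 0.47 (SE), adjusted p = 0.0369. Tll1, a protease that frees BMPs by cutting Chrd, read 0.431 and 0.629 CPM at 0 h and 15.3, 16.8 and 5.05 CPM at 24 h (4.53 ± 0.58 (SE), adjusted p = 0.00142). Tll1 had a line-specific change of 4.92 ± 0.65 (SE), adjusted p = 0.00664. Chrd, the substrate, rose as given above. The receptor Bmpr1b had 0 counts at 0 h and 2.18, 1.77 and 0.739 CPM at 24 h, at least 19.5-fold higher, and the receptor Acvr1 rose from 4.98 and 4.89 to 10, 9.99 and 9.16 CPM (0.98 ± 0.16 (SE), adjusted p = 0.00485). Smad1, the effector, went from 8.56 and 10.3 to 23.9, 24.6 and 16.9 CPM (1.21 ± 0.20 (SE), adjusted p = 0.00451). Of the targets, the inhibitors of differentiation Id2 and Id3 rose from 2.01 and 1.21 to 5.21, 5.75 and 10.4 CPM and from 14.4 and 13.6 to 48.9, 49.4 and 31 CPM. Id4 rose from 2.44 and 2.37 to 5.01, 5.05 and 7.21 CPM, and the homeobox gene Msx1 from 0.0957 and 0.0484 to 0.496, 0.645 and 1.51 CPM. Id2 and Id3 read 12.6 to 36.6 CPM and 36 to 85.3 CPM in the other lines at 24 h, and no line-specific test of the 4 targets passed. Bmp4, the main ligand of ES cells in serum, read 27 and 25 CPM at 0 h and 6.1, 6.34 and 20.1 CPM at 24 h. It passed in replicates 1 and 2 (adjusted p = 0.0134) but not over all 3 libraries (adjusted p = 0.183). The median of the list was 0.65 in replicates 1 and 2 and 0.52 in replicate 3. Bmp7, Bmpr1b, Acvr1, Id3, Id4 and Msx1 did not pass when 0 h replicate 1 or 2 was left out (adjusted p from 0.0530 to 0.206). Smad1 did not pass when 0 h replicate 1 was left out (adjusted p = 0.0780). Id2 did not pass when 0 h replicate 2 was left out (adjusted p = 0.0763). Id4 also failed without 24 h replicate 1 or 2 or 1 library of another line (adjusted p from 0.0503 to 0.0532). Bmp7 lost its line-specific call in 10 of the 13 fits (highest adjusted p = 0.222, without 0 h replicate 2). Tll1 lost its line-specific call without 0 h replicate 1 or 2 (adjusted p from 0.0745 to 0.0948).

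A peptide hormone, enzymes that process prohormones and a neuroendocrine factor rose, while a granule protein fell. Of 25 pancreatic endocrine and neuroendocrine genes tested, 4 rose and 2 fell (6 rising and 2 falling in replicates 1 and 2, 6 and 3 in replicate 3, 2 to 6 and 2 to 3 with 1 library left out). Calca, which encodes calcitonin and the neuropeptide CGRP (mm10 chromosome 7, 114631478 to 114636357, minus strand), read 5.93 and 7.12 CPM at 0 h and 231, 236 and 66.2 CPM at 24 h (4.77 ± 0.70 (SE), adjusted p = 0.00281). Its line-specific change was 5.20 ± 0.78 (SE), adjusted p = 0.0115, and the other lines read 1.59 to 15.1 CPM at 24 h. Pcsk1, prohormone convertase 1, read 1.05 and 1.02 CPM at 0 h and 5.6, 4.84 and 5.85 CPM at 24 h (2.39 ± 0.43 (SE), adjusted p = 0.00757). Pcsk1 had a line-specific change of 3.64 ± 0.51 (SE), adjusted p = 0.00896. Pam, the enzyme that amidates peptide hormones such as calcitonin, rose from 13.8 and 12.3 to 27.6, 26 and 22.7 CPM (0.96 ± 0.15 (SE), adjusted p = 0.00375). Insm1, a zinc-finger factor of neuroendocrine cells, rose from 0.191 and 0.194 to 6.99, 7.04 and 2.37 CPM (4.79 ± 0.65 (SE), adjusted p = 0.00190). Calca and Insm1 were lower in replicate 3 than in replicates 1 and 2, whereas Pcsk1 and Pam were at 112% and 84.7% of them. The granule protein Chga fell from 17.8 and 17.7 to 6.2, 5.27 and 5.26 CPM (-1.67 ± 0.25 (SE), adjusted p = 0.00284). The beta-cell factor Mafa fell from 6.41 and 6.58 to 1.29, 0.752 and 1.69 CPM (-2.37 ± 0.32 (SE), adjusted p = 0.00188). Syt13, a synaptotagmin of granule exocytosis, read 0.909 and 0.726 CPM at 0 h and 1.14, 0.806 and 0.916 CPM at 24 h against 3.1 to 26.7 CPM in the other lines at 24 h. Syt13 had a line-specific change of -3.79 ± 0.42 (SE), adjusted p = 0.00298. Calca did not pass when 0 h replicate 1 was left out (adjusted p = 0.0527). Pcsk1 did not pass when 0 h replicate 1 or 2 was left out (adjusted p from 0.0921 to 0.0929). Pam did not pass when 0 h replicate 2 was left out (adjusted p = 0.0674). Calca and Pcsk1 lost their line-specific calls without 0 h replicate 1 or 2 (adjusted p from 0.105 to 0.135).

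Genes of the unfolded protein response, which matches the endoplasmic reticulum to its secretory load, rose in 4 of 21 tested and fell in 0 (6 rising and 0 falling in replicates 1 and 2, 2 and 1 in replicate 3, 0 to 7 and 0 with 1 library left out). All 4 belong to the branch of IRE1 or to the disposal of misfolded proteins, and none is a chaperone. Xbp1, the factor activated by IRE1, read 72.4 and 71 CPM at 0 h and 123, 120.0 and 102 CPM at 24 h (0.68 ± 0.18 (SE), adjusted p = 0.0381). Xbp1 had a line-specific change of 1.05 ± 0.21 (SE), adjusted p = 0.0327. Ern1, which encodes IRE1, rose from 9.04 and 10.1 to 18.6, 18.3 and 11.8 CPM (0.76 ± 0.21 (SE), adjusted p = 0.0480). Sel1l, an adaptor of ER-associated degradation, rose from 49 and 49.6 to 86.3, 78.6 and 84.2 CPM (0.75 ± 0.12 (SE), adjusted p = 0.00482). Sel1l had a line-specific change of 0.80 ± 0.15 (SE), adjusted p = 0.0246. Edem1, a lectin of the same route, rose from 35.1 and 39.8 to 53.2, 50.1 and 54.2 CPM (0.49 ± 0.11 (SE), adjusted p = 0.0226). Hspa5, the main chaperone BiP, read 709 and 701 CPM at 0 h and 817, 792 and 402 CPM at 24 h: replicates 1 and 2 were above and replicate 3 below the 0 h level. The median of the list was 0.20 in replicates 1 and 2 and -0.21 in replicate 3. Xbp1, Ern1, Sel1l and Edem1 did not pass when 0 h replicate 1 or 2 was left out (adjusted p from 0.0626 to 0.310). Xbp1 also failed without 24 h replicate 1 or 2 or any 1 of 4 libraries of other lines (adjusted p from 0.0557 to 0.103). Ern1 did not pass without 24 h replicate 1 or 2 or any 1 of 6 libraries of other lines (adjusted p from 0.0687 to 0.133). Edem1 did not pass without 24 h replicate 1 (adjusted p = 0.0659). Xbp1 lost its line-specific call in 9 of the 13 fits (highest adjusted p = 0.210, without 0 h replicate 2). Sel1l lost its line-specific call in 6 of the 13 fits (highest adjusted p = 0.182, without 0 h replicate 1).

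Genes of mammary and prostate luminal cells moved in both directions, 5 of 26 rising and 3 falling (5 rising and 3 falling in replicates 1 and 2, 4 and 3 in replicate 3, 1 to 11 and 0 to 3 with 1 library left out). Spdef, an ETS factor of prostate, mammary and goblet cells, read 0.0957 and 0.194 CPM at 0 h and 2.98, 3.01 and 3.28 CPM at 24 h (4.37 ± 0.64 (SE), adjusted p = 0.00261). The other lines held 0 to 0.282 CPM of Spdef at 24 h, too little for the line-specific test to decide (adjusted p = 1.00). Zbtb16, a zinc-finger repressor that steroid receptors activate, read 0.335 and 0.339 CPM at 0 h and 11.8, 10.6 and 1.89 CPM at 24 h (4.57 ± 1.01 (SE), adjusted p = 0.0195). Zbtb16 had a line-specific change of 6.31 ± 1.22 (SE), adjusted p = 0.0295. Cited1, a co-activator of hormone-responsive mammary cells, rose from 2.15 and 2.47 to 5.46, 6.72 and 9.43 CPM (1.64 ± 0.38 (SE), adjusted p = 0.0246). The oestrogen and progesterone receptor genes Esr1 and Pgr were at low levels and did not pass. Esr1 read 0.478 and 0.532 CPM at 0 h and 0.298, 0.322 and 0.148 CPM at 24 h. Pgr read 0.287 and 0.194 CPM at 0 h and 0.298, 0.376 and 0.0591 CPM at 24 h. Fkbp5, a target of steroid receptors, fell from 234 and 231 to 150.4, 151 and 161 CPM (-0.59 ± 0.09 (SE), adjusted p = 0.00412). Tfap2c, an AP-2 factor of luminal and early embryonic cells, fell from 49.9 and 47.5 to 2.98, 2.79 and 18 CPM (-2.60 ± 0.66 (SE), adjusted p = 0.0346). The prolactin receptor Prlr also fell (from 1.15 and 0.871 to 0.298, 0.215 and 0.355 CPM). Spdef did not pass when 0 h replicate 1 was left out (adjusted p = 0.0530). Zbtb16, Cited1, Fkbp5, Tfap2c and Prlr did not pass when 0 h replicate 1 or 2 was left out (adjusted p from 0.0518 to 0.210). Zbtb16 and Prlr also failed without 24 h replicate 1 or 2 (adjusted p from 0.0533 to 0.0859). Cited1 did not pass without 24 h replicate 2 (adjusted p = 0.0538). Tfap2c did not pass without 24 h replicate 1 or 2 or any 1 of 6 libraries of other lines (adjusted p from 0.0549 to 0.0802). Zbtb16 lost its line-specific call in 7 of the 13 fits (highest adjusted p = 0.215, without 0 h replicate 1).

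Emp2, an epithelial membrane protein abundant in lung, was among the genes that set the line apart. It read 7.27 and 7.45 CPM at 0 h and 169.9, 172 and 92 CPM at 24 h (4.29 ± 0.50 (SE), adjusted p = 8.40e-04), against 1.31 to 6.36 CPM in the other lines at 24 h. Emp2 had a line-specific change of 5.09 ± 0.56 (SE), adjusted p = 0.00298. The list of lung and airway genes as a whole had 3 of 13 rising and 1 falling (3 rising and 1 falling in replicates 1 and 2, 5 and 0 in replicate 3, 2 to 3 and 0 to 1 with 1 library left out). The rises were Emp2, Foxj1 and Id2 and the fall the mucin Muc1 (from 0.813 and 0.532 to 0.0496, 0.0537 and 0.118 CPM). Muc1 did not pass when 0 h replicate 1 was left out (adjusted p = 0.0954). Emp2 lost its line-specific call without 0 h replicate 1 or 2 (adjusted p from 0.0517 to 0.0535).

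Of 21 intestinal and simple epithelial genes 6 rose and 2 fell (8 rising and 3 falling in replicates 1 and 2, 9 and 2 in replicate 3, 2 to 8 and 2 to 3 with 1 library left out), the fallen ones being Cdx1 and Myo1a. Vil1, the actin bundler villin of the brush border, rose from 0.957 and 1.06 to 3.52, 4.25 and 5.11 CPM (2.08 ± 0.35 (SE), adjusted p = 0.00552). Myo1a, a motor of the same structure, fell from 4.26 and 3.39 to 0.545, 0.645 and 0.680 CPM (-2.60 ± 0.30 (SE), adjusted p = 8.63e-04). Lgals4, a lectin of gut epithelium, rose from 0.861 and 0.726 to 1.98, 2.04 and 2.54 CPM (1.46 ± 0.28 (SE), adjusted p = 0.0101). Epcam, an adhesion molecule of epithelia and ES cells, rose from 57.7 and 58.7 to 82.5, 88 and 111 CPM (0.69 ± 0.14 (SE), adjusted p = 0.0156). The homeobox factor Cdx2 read 0.431 and 0.581 CPM at 0 h and 5.9, 5.54 and 1.45 CPM at 24 h and passed in replicates 1 and 2 (adjusted p = 0.0333) but not in replicate 3 (adjusted p = 0.306). Primitive streak and mesoderm genes had 1 of 25 rising and 3 falling (4 rising and 4 falling in replicates 1 and 2, 2 and 4 in replicate 3, 0 to 4 and 2 to 4 with 1 library left out). Hand1, a factor of lateral mesoderm and trophoblast, rose from 0.191 and 0.290 to 2.08, 1.67 and 14.3 CPM (4.63 ± 1.02 (SE), adjusted p = 0.0198) and was highest in replicate 3. Wnt3a, a ligand of the streak, fell from 0.909 and 1.06 to 0, 0 and 0.0296 CPM, and Tal1, a blood factor, from 0.574 and 0.871 to 0.149, 0.215 and 0.0591 CPM (-2.39 ± 0.54 (SE), adjusted p = 0.0216). Vil1, Lgals4, Epcam, Hand1 and Tal1 did not pass when 0 h replicate 1 or 2 was left out (adjusted p from 0.0645 to 0.180). Tal1 also failed without 24 h replicate 1 (adjusted p = 0.0615).

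**Figure D2:**
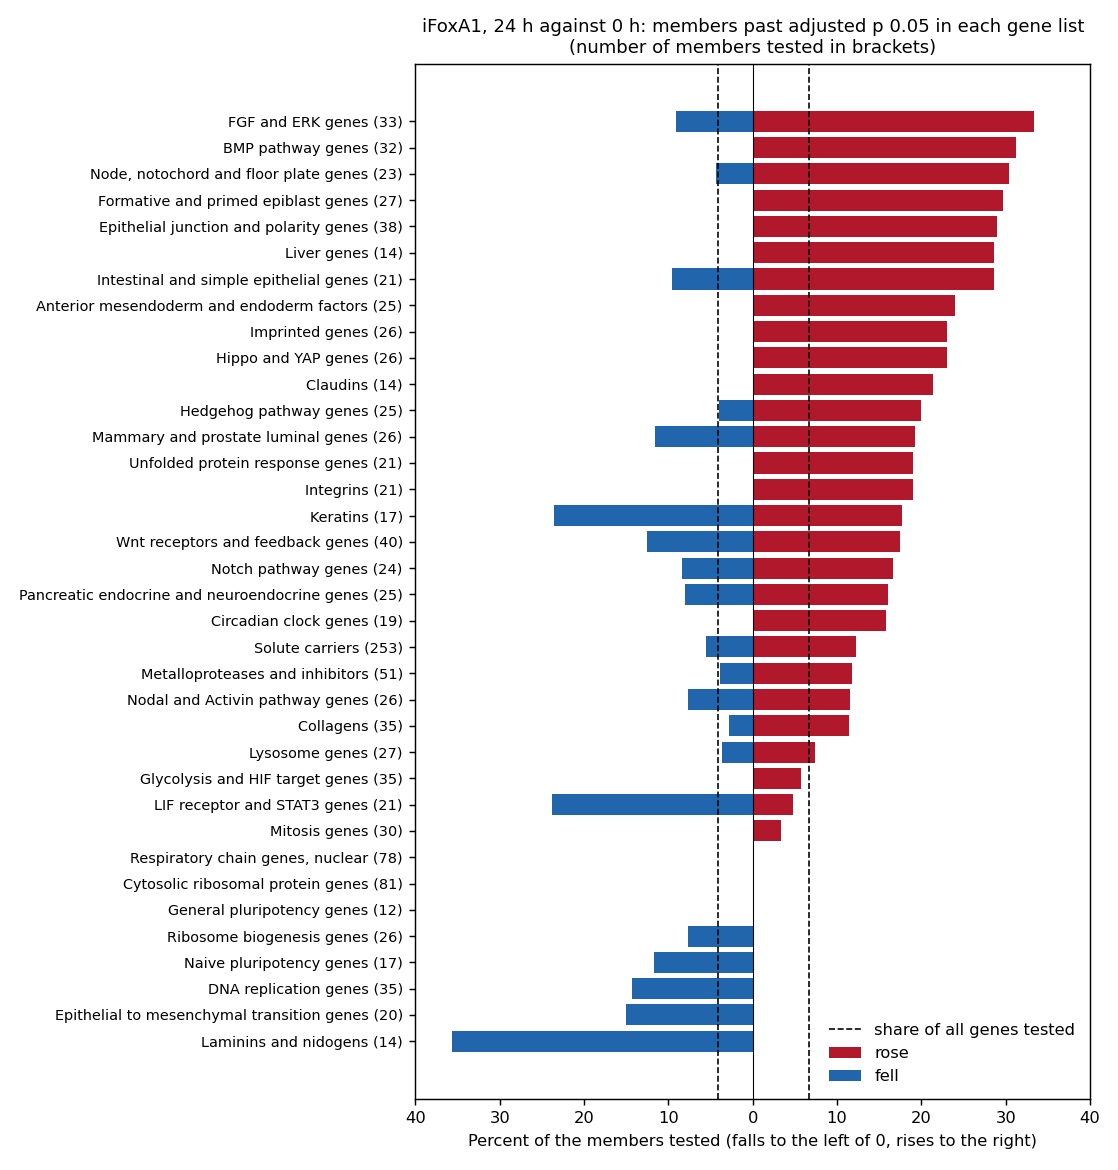
Percent of the tested members of 36 gene lists that rose (red, to the right) or fell (blue, to the left) between 0 h and 24 h in iFoxA1, with edgeR's adjusted p under 0.05. Dashed lines mark the share over all genes tested, 6.62% rising and 4.14% falling. FGF and ERK, BMP and node genes have the largest share rising and laminins the largest share falling, while ribosomal protein, respiratory chain and general pluripotency genes have none in either direction.

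Epithelial junction and polarity genes rose in 11 of 38 tested and fell in 0 (13 rising and 2 falling in replicates 1 and 2, 11 and 0 in replicate 3, 3 to 14 and 0 to 2 with 1 library left out). Esrp1, the splicing factor of epithelial cells, read 7.99 and 7.94 CPM at 0 h and 102, 100.4 and 75.3 CPM at 24 h (3.54 ± 0.21 (SE), adjusted p = 2.80e-05). The tight junction protein Ocln rose from 3.01 and 2.32 to 14.2, 12.1 and 6.8 CPM. Marveld2, of the same junction, rose from 1.91 and 1.74 to 14.8, 14.6 and 5.08 CPM and its partner Cgn from 14.2 and 14.6 to 50.6, 50.9 and 22.4 CPM. These 3 were higher in replicates 1 and 2 than in replicate 3. The scaffold Tjp1 rose from 152 and 159 to 236, 235 and 318 CPM and the desmosomal plakophilin Pkp2 from 37.4 and 38.7 to 74.9, 74.4 and 97.5 CPM. Patj, a polarity gene, rose from 7.7 and 8.08 to 21.8, 19.4 and 26.7 CPM. These 3 were highest in replicate 3. Of these 7 genes only Ocln had a line-specific change past the threshold (1.86 ± 0.39 (SE), adjusted p = 0.0369). Grhl2, a master factor of epithelial identity, read 20.5 and 17.9 CPM at 0 h and 25.4, 24.7 and 27 CPM at 24 h against 52.9 to 91.6 CPM in the other lines at 24 h, and its line-specific change was negative (-1.59 ± 0.17 (SE), adjusted p = 0.00281). Cdh1, E-cadherin, read 293 and 299 CPM at 0 h and 410.4, 407 and 557 CPM at 24 h and did not pass (adjusted p = 0.0673). Ocln did not pass when 0 h replicate 2 was left out (adjusted p = 0.0751). Marveld2, Cgn and Tjp1 did not pass when 0 h replicate 1 or 2 was left out (adjusted p from 0.142 to 0.231). Patj did not pass when 0 h replicate 1 was left out (adjusted p = 0.0513). Marveld2 also failed without 24 h replicate 1 or 2 (adjusted p from 0.0600 to 0.0602). Cgn did not pass without 24 h replicate 1 or 2 or any 1 of 6 libraries of other lines (adjusted p from 0.0558 to 0.0971). Ocln lost its line-specific call in 10 of the 13 fits (highest adjusted p = 0.245, without 0 h replicate 2).

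Claudins and keratins changed member by member, and 37 of 54 keratins and 9 of 23 claudins were too low to test. Of 14 claudins 3 rose and none fell (3 rising and 0 falling in replicates 1 and 2, 3 and 0 in replicate 3, 2 to 3 and 0 with 1 library left out). The third beside Cldn6 and Cldn10 was Cldn3, which rose from 1.39 and 1.16 to 5.5, 6.39 and 7.3 CPM (2.32 ± 0.21 (SE), adjusted p = 2.38e-04). Of 17 keratins tested 3 rose and 4 fell (3 rising and 4 falling in replicates 1 and 2, 4 and 2 in replicate 3, 1 to 4 and 2 to 4 with 1 library left out). Krt7, a keratin of simple and ductal epithelia, read 1.24 and 0.968 CPM at 0 h and 17.9, 17.9 and 19.8 CPM at 24 h (4.06 ± 0.63 (SE), adjusted p = 0.00371), with a line-specific change of 3.13 ± 0.68 (SE), adjusted p = 0.0437, and was at a like level in all 3 libraries at 24 h. Krt18, its partner type in simple epithelia, read 11.3 and 11.4 CPM at 0 h and 92.1, 90.4 and 52.2 CPM at 24 h (2.78 ± 0.38 (SE), adjusted p = 0.00211). Krt222 rose from 0.383 and 0.387 to 8.48, 7.63 and 2.39 CPM. Krt17, a keratin of stressed and stratified epithelia, fell from 2.87 and 3.1 to 0.198, 0.269 and 0.296 CPM (-3.51 ± 0.34 (SE), adjusted p = 3.85e-04), and its relatives Krt42 and Krt16 fell from 14.3 and 12.8 to 1.78, 1.56 and 2.87 CPM (-2.70 ± 0.26 (SE), adjusted p = 3.32e-04) and from 0.431 and 0.242 to 0, 0 and 0.0296 CPM. Krt13, of internal stratified epithelia, read 0.813 and 0.871 CPM at 0 h and 0, 0 and 0 CPM at 24 h, at least 20.4-fold lower. Krt7, Krt16 and Krt13 did not pass when 0 h replicate 1 or 2 was left out (adjusted p from 0.0516 to 0.156). Krt222 did not pass when 0 h replicate 1 was left out (adjusted p = 0.0503). Krt16 also failed without 24 h replicate 1 or 2 (adjusted p from 0.0636 to 0.0667). Krt7 lost its line-specific call in 10 of the 13 fits (highest adjusted p = 0.268, without 0 h replicate 2).

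Single mesenchymal genes and several genes of the basement membrane fell. In the list of the epithelial to mesenchymal transition 3 of 20 fell and 0 rose (0 rising and 4 falling in replicates 1 and 2, 0 and 2 in replicate 3, 0 to 3 and 1 to 4 with 1 library left out). Its median log2 change was -0.03, and 10 of the 20 were positive in replicates 1 and 2. Other mesenchymal lists had no falls: 2 of 15 fibroblast genes rose (median 0.725) and 2 of 8 smooth muscle and myofibroblast genes (median 0.694). Vim, the intermediate filament vimentin, fell from 519 and 503 to 112, 111 and 134 CPM (-2.10 ± 0.14 (SE), adjusted p = 5.86e-05). Vim had a line-specific change of -0.99 ± 0.17 (SE), adjusted p = 0.0199. Tgfbi, a matrix protein induced by TGF-beta, fell from 6.99 and 7.41 to 0.992, 1.77 and 2.63 CPM (-1.99 ± 0.35 (SE), adjusted p = 0.00679). Sparc, a matrix glycoprotein, fell from 317 and 308 to 198, 192 and 225 CPM (-0.61 ± 0.14 (SE), adjusted p = 0.0240). Line-specific changes were -2.67 for Tgfbi (adjusted p = 0.0154) and -0.81 for Sparc (adjusted p = 0.0402). Among laminins and their partners 5 of 14 fell and 0 rose (0 rising and 5 falling in replicates 1 and 2, 1 and 4 in replicate 3, 0 and 2 to 5 with 1 library left out). Lama3 fell from 17.9 and 16.8 to 4.61, 5.37 and 2.16 CPM, furthest in replicate 3. Agrn, the proteoglycan agrin, fell from 220.3 and 234 to 88, 95.3 and 96.7 CPM. Lama1, the chain of the first embryonic laminin, fell from 206 and 211 to 98, 97 and 74.5 CPM, and the other lines read 3.3 to 14.8 CPM at 24 h (line-specific adjusted p = 0.107). Lamb2 also fell (from 28.2 and 28.8 to 17.1, 16.1 and 20.2 CPM; -0.68 ± 0.18 (SE), adjusted p = 0.0395). Tgfbi, Sparc, Lama3, Lama1 and Lamb2 did not pass when 0 h replicate 1 or 2 was left out (adjusted p from 0.0511 to 0.214). Sparc also failed without 24 h replicate 1 or 2 (adjusted p from 0.0789 to 0.0809). Lamb2 did not pass without 24 h replicate 1 or 2 or any 1 of 6 libraries of other lines (adjusted p from 0.0602 to 0.113). Vim lost its line-specific call in 4 of the 13 fits (highest adjusted p = 0.150, without 0 h replicate 1). Tgfbi lost its line-specific call in 3 of the 13 fits (highest adjusted p = 0.116, without 0 h replicate 2). Sparc lost its line-specific call in 9 of the 13 fits (highest adjusted p = 0.221, without 0 h replicate 1).

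Of 21 genes of integrins, the receptors of the matrix, 4 rose and 0 fell (4 rising and 1 falling in replicates 1 and 2, 4 and 0 in replicate 3, 1 to 4 and 0 to 2 with 1 library left out). Itgav, the vitronectin and TGF-beta activating chain, read 29.1 and 29.3 CPM at 0 h and 101, 91.6 and 96.2 CPM at 24 h (1.72 ± 0.21 (SE), adjusted p = 0.00103). Itgav had a line-specific change of 1.34 ± 0.24 (SE), adjusted p = 0.0223. Itga6, a laminin receptor chain, rose from 114 and 123 to 307, 289 and 328 CPM (1.38 ± 0.24 (SE), adjusted p = 0.00602). Itga3 rose from 50.2 and 55 to 181, 181 and 89.3 CPM (1.52 ± 0.34 (SE), adjusted p = 0.0213). Itga7, of muscle, rose from 0.861 and 0.774 to 2.28, 2.26 and 8.69 CPM (2.43 ± 0.61 (SE), adjusted p = 0.0345). Of 51 metalloproteases and their inhibitors 6 rose and 2 fell (7 rising and 5 falling in replicates 1 and 2, 5 and 3 in replicate 3, 2 to 7 and 1 to 5 with 1 library left out). Timp4, an inhibitor of matrix metalloproteases, read 0.383 and 0.290 CPM at 0 h and 13, 12 and 4.97 CPM at 24 h (4.87 ± 0.70 (SE), adjusted p = 0.00250), against 0.0290 to 0.532 CPM in the other lines at 24 h. Timp4 had a line-specific change of 4.74 ± 0.81 (SE), adjusted p = 0.0197. Collagens had 4 of 35 rising and 1 falling (2 rising and 2 falling in replicates 1 and 2, 2 and 1 in replicate 3, 0 to 5 and 0 to 3 with 1 library left out). The basement membrane chain Col4a1 rose from 228 and 225 to 381, 379 and 457 CPM (0.84 ± 0.23 (SE), adjusted p = 0.0479), and the fibrillar chain Col5a2 fell from 3.59 and 3.63 to 0.446, 0.591 and 0.828 CPM (-2.51 ± 0.52 (SE), adjusted p = 0.0145). Itga6, Itga3, Itga7, Col4a1 and Col5a2 did not pass when 0 h replicate 1 or 2 was left out (adjusted p from 0.0646 to 0.253). Itga3 and Col5a2 also failed without 24 h replicate 1 or 2 (adjusted p from 0.0528 to 0.0621). Itga7 did not pass without any 1 of 6 libraries of other lines (adjusted p from 0.0536 to 0.0572). Col4a1 did not pass without 24 h replicate 1, 2 or 3 or any 1 of 4 libraries of other lines (adjusted p from 0.0561 to 0.0869). Itgav and Timp4 lost their line-specific calls in 4 of the 13 fits (highest adjusted p = 0.171, without 0 h replicate 2).

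Among 33 FGF and ERK genes 11 rose and 3 fell (12 rising and 5 falling in replicates 1 and 2, 13 and 2 in replicate 3, 7 to 12 and 2 to 5 with 1 library left out), with a median of 0.65. In the line-specific test 0 members were higher and 4 lower, with a median of -0.475. Feedback inhibitors of ERK were among the genes that rose. Dusp4 read 4.69 and 3.82 CPM at 0 h and 88.6, 88.7 and 91.2 CPM at 24 h (4.39 ± 0.35 (SE), adjusted p = 1.58e-04). Dusp6 read 38.3 and 39.6 CPM at 0 h and 178, 178 and 195 CPM at 24 h (2.24 ± 0.18 (SE), adjusted p = 1.61e-04). Both stood at like levels in the 3 libraries at 24 h. Of the immediate targets, Phlda1 rose from 7.42 and 7.02 to 47.8, 47.9 and 41.4 CPM (2.66 ± 0.15 (SE), adjusted p = 2.69e-05). Egr1 rose from 0.287 and 0.436 to 16.7, 15.9 and 9.02 CPM (5.24 ± 0.57 (SE), adjusted p = 6.43e-04). Fos, another immediate early gene, rose from 0.574 and 0.678 to 3.22, 3.6 and 22 CPM (3.93 ± 0.91 (SE), adjusted p = 0.0243) and was highest in replicate 3. Of the ligands, Fgf1 rose from 0.526 and 0.581 to 4.26, 4.84 and 6.65 CPM (3.23 ± 0.38 (SE), adjusted p = 8.62e-04). Fgf17 and Fgf10 fell, Fgf10 from 6.94 and 8.04 to 0.793, 0.645 and 1.0 CPM. Fgf5, the classic ligand of the formative epiblast, rose from 0.239 and 0.0968 to 3.27, 3.38 and 3.04 CPM (4.22 ± 0.50 (SE), adjusted p = 0.00101) but stood below the 7.84 to 31.6 CPM of the other lines. Fgf5 had a line-specific change of -3.14 ± 0.70 (SE), adjusted p = 0.0471. The receptor gene Fgfr2 rose from 6.22 and 7.21 to 24.5, 26.9 and 21.6 CPM. Fos, Fgf10 and Fgfr2 did not pass when 0 h replicate 1 or 2 was left out (adjusted p from 0.0526 to 0.201). Fgf5 lost its line-specific call in 11 of the 13 fits (highest adjusted p = 0.542, without 0 h replicate 1).

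In the Notch pathway 4 of 24 genes rose and 2 fell (3 rising and 3 falling in replicates 1 and 2, 9 and 2 in replicate 3, 2 to 7 and 0 to 3 with 1 library left out). Hey1, a target and effector of Notch, read 1.2 and 1.26 CPM at 0 h and 15.2, 12.8 and 6.33 CPM at 24 h (3.21 ± 0.40 (SE), adjusted p = 0.00128), against 1.01 to 2.29 CPM in the other lines at 24 h. Hey1 had a line-specific change of 3.17 ± 0.45 (SE), adjusted p = 0.00979. The ligands Dll1 (from 1.0 and 0.968 to 3.42, 3.71 and 14.4 CPM) and Jag2 (from 8.9 and 10.6 to 20.7, 24.9 and 29.6 CPM) rose, and the ligand Jag1 fell (from 11.9 and 12 to 6.0, 5.64 and 4.32 CPM; -1.17 ± 0.24 (SE), adjusted p = 0.0141). Hes6, an effector that opposes Hes1, rose from 8.76 and 9.1 to 19.4, 21.6 and 18.1 CPM (1.14 ± 0.14 (SE), adjusted p = 0.00108). Dll1, Jag2 and Jag1 did not pass when 0 h replicate 1 or 2 was left out (adjusted p from 0.101 to 0.240). Dll1 also failed without any 1 of 4 libraries of other lines (adjusted p from 0.0539 to 0.0565). Jag2 did not pass without 24 h replicate 2 or 3 or any 1 of 4 libraries of other lines (adjusted p from 0.0515 to 0.0711). Hey1 lost its line-specific call without 0 h replicate 1 or 2 (adjusted p from 0.110 to 0.112).

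Hippo and YAP genes rose in 6 of 26 and fell in 0 (6 rising and 0 falling in replicates 1 and 2, 7 and 0 in replicate 3, 2 to 10 and 0 to 1 with 1 library left out), with medians of 0.42 in replicates 1 and 2 and 0.51 in replicate 3. The kinase Lats2 rose from 5.31 and 5.23 to 20, 22.4 and 12.6 CPM (1.80 ± 0.34 (SE), adjusted p = 0.00993). The co-activator Yap1 rose from 159.5 and 165 to 237, 225 and 232 CPM (0.51 ± 0.10 (SE), adjusted p = 0.0120). Its competitor Vgll4 rose from 6.08 and 5.76 to 17.8, 17.4 and 19.9 CPM (1.63 ± 0.29 (SE), adjusted p = 0.00718), and the target Ccn2 from 24.3 and 25 to 56.6, 55.9 and 59 CPM (1.22 ± 0.18 (SE), adjusted p = 0.00265). None of these 4 had a line-specific change past the threshold. In the Nodal and Activin pathway 3 of 26 rose and 2 fell (3 rising and 2 falling in replicates 1 and 2, 5 and 1 in replicate 3, 1 to 5 and 0 to 3 with 1 library left out). The target Skil rose from 58.8 and 64.8 to 218, 205 and 250.3 CPM (1.86 ± 0.21 (SE), adjusted p = 6.76e-04). The inhibin chain Inhbb fell from 60.7 and 63.2 to 4.81, 4.78 and 3.81 CPM (-3.79 ± 0.69 (SE), adjusted p = 0.00789). Lefty1, a Nodal antagonist, read 36.2 and 39.1 CPM at 0 h and 61.9, 63.1 and 28.4 CPM at 24 h and did not pass (adjusted p = 0.625). Among 40 Wnt receptors and feedback genes 7 rose and 5 fell (10 rising and 6 falling in replicates 1 and 2, 9 and 5 in replicate 3, 1 to 11 and 3 to 9 with 1 library left out). By the line-specific test 0 of them were higher and 4 lower. Nkd2, an inhibitor of Dishevelled, rose from 0.526 and 0.871 to 8.78, 9.24 and 4.46 CPM (3.41 ± 0.45 (SE), adjusted p = 0.00168). The feedback gene Axin2 fell from 13.2 and 14.3 to 5.6, 4.19 and 6.41 CPM (-1.34 ± 0.34 (SE), adjusted p = 0.0356). Sfrp1, a secreted inhibitor, fell from 53 and 54.5 to 4.96, 5.37 and 13.9 CPM (-2.73 ± 0.47 (SE), adjusted p = 0.00597). The line-specific change of Axin2 was -1.90 ± 0.42 (SE), adjusted p = 0.0449. Lats2, Yap1, Vgll4, Inhbb and Axin2 did not pass when 0 h replicate 1 or 2 was left out (adjusted p from 0.0511 to 0.193). Axin2 also failed without 24 h replicate 1 or 2 or any 1 of 5 libraries of other lines (adjusted p from 0.0521 to 0.106). Axin2 lost its line-specific call in 10 of the 13 fits (highest adjusted p = 0.221, without 0 h replicate 2).

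Over all 3 libraries 2 of 17 genes of the naive state fell and 0 rose (0 rising and 6 falling in replicates 1 and 2, 0 and 2 in replicate 3, 0 and 1 to 5 with 1 library left out). Their median was -1.55 in replicates 1 and 2 and -0.25 in replicate 3. Nr5a2, a nuclear receptor of naive cells, fell from 82.1 and 80.7 to 7.14, 7.2 and 15.5 CPM (-3.02 ± 0.50 (SE), adjusted p = 0.00489). Gbx2, a homeobox target of STAT3, fell from 26.8 and 27.9 to 12.8, 11.6 and 5.05 CPM (-1.49 ± 0.30 (SE), adjusted p = 0.0139). Esrrb, an orphan nuclear receptor, read 568 and 575 CPM at 0 h and 171, 172 and 726 CPM at 24 h. Klf2, a zinc-finger factor, read 104 and 106 CPM at 0 h and 34.8, 33.4 and 239.8 CPM at 24 h. For both, replicates 1 and 2 were below and replicate 3 above the 0 h libraries, and neither passed in either check (adjusted p = 0.141 and 0.784 for Esrrb, 0.322 and 0.451 for Klf2). Nanog read 589.7 and 579 CPM at 0 h and 51.2, 50 and 297 CPM at 24 h and passed in replicates 1 and 2 (-3.53, adjusted p = 5.38e-04) but not in replicate 3 (-0.97, adjusted p = 0.140). Of 12 general pluripotency genes none passed over all 3 libraries (0 rising and 0 falling in replicates 1 and 2, 1 and 0 in replicate 3, 0 to 1 and 0 to 1 with 1 library left out). Gbx2 did not pass when 0 h replicate 1 or 2 was left out (adjusted p from 0.0908 to 0.0971).

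LIF receptor and STAT3 genes fell in 5 of 21 and rose in 1 (3 rising and 6 falling in replicates 1 and 2, 2 and 4 in replicate 3, 0 to 3 and 3 to 5 with 1 library left out). Stat3 itself fell from 96.9 and 98.8 to 24.8, 25.1 and 37 CPM (-1.75 ± 0.18 (SE), adjusted p = 4.32e-04). Its feedback target Socs3 fell from 93.8 and 91.6 to 15.9, 15.3 and 22.1 CPM (-2.38 ± 0.24 (SE), adjusted p = 4.45e-04). The others that fell were Bcl3, Osm and Gbx2. In each of these 5 genes all 24 h libraries were below both at 0 h. Fos was the member that rose. The receptor chains Lifr (75.5 and 74.7 CPM at 0 h and 53, 55.3 and 96 CPM at 24 h) and Il6st (101 and 100.3 CPM at 0 h and 42.8, 38.3 and 136 CPM at 24 h) did not pass and lay above 0 h in replicate 3.

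Formative and primed epiblast genes rose in 8 of 27 and fell in 0 (11 rising and 0 falling in replicates 1 and 2, 9 and 0 in replicate 3, 5 to 16 and 0 with 1 library left out), and the line-specific change was lower for 9 and higher for 1. Pou3f1, a POU factor of the formative state, rose from 1.77 and 1.6 to 9.03, 9.94 and 10.9 CPM (2.56 ± 0.13 (SE), adjusted p = 2.62e-05) but remained below the 30.9 to 164 CPM of the other lines. Car4, a carbonic anhydrase, rose from 1.48 and 1.6 to 5.5, 4.94 and 3.84 CPM and Dnmt3b, a DNA methyltransferase of the epiblast, read 259.9 and 260.5 CPM at 0 h and 289, 282 and 375 CPM at 24 h. The other lines read 9.41 to 64.1 CPM of Car4 and 381 to 959.9 CPM of Dnmt3b at 24 h, with line-specific changes of -5.17 ± 0.35 (SE), adjusted p = 4.73e-04 for Car4 and -1.49 ± 0.22 (SE), adjusted p = 0.0115 for Dnmt3b. Otx2, given above, did not pass the line-specific test (adjusted p = 0.880). The medians in iFoxA1 were 0.82 in replicates 1 and 2 and 0.97 in replicate 3. Dnmt3b lost its line-specific call without 0 h replicate 1 or 2 (adjusted p from 0.0939 to 0.0959).

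Imprinted genes rose in 6 of 26 and fell in 0 (8 rising and 1 falling in replicates 1 and 2, 6 and 3 in replicate 3, 1 to 8 and 0 to 1 with 1 library left out). Nnat, a paternally expressed proteolipid of neuroendocrine and neural cells, read 2.92 and 2.52 CPM at 0 h and 123, 134 and 21.2 CPM at 24 h (5.09 ± 0.75 (SE), adjusted p = 0.00281), against 4.73 to 14.8 CPM in the other lines at 24 h. Nnat had a line-specific change of 4.45 ± 0.80 (SE), adjusted p = 0.0231. Mest, a paternally expressed hydrolase of mesoderm, rose from 75.1 and 71 to 306, 295 and 107 CPM (1.69 ± 0.37 (SE), adjusted p = 0.0187). Peg10, a placental gene of retrotransposon origin, rose from 92.1 and 96.9 to 494, 462 and 999 CPM (2.79 ± 0.48 (SE), adjusted p = 0.00648). Snrpn, a splicing gene, rose from 108 and 109.7 to 251, 250.2 and 215 CPM (1.13 ± 0.12 (SE), adjusted p = 6.23e-04). The maternally expressed H19 RNA rose from 61.3 and 56.2 to 151, 163 and 128 CPM (1.32 ± 0.27 (SE), adjusted p = 0.0133). The trophoblast factor Ascl2 rose from 1.0 and 1.06 to 2.53, 2.1 and 8.54 CPM (2.09 ± 0.56 (SE), adjusted p = 0.0435). Nnat and Mest were highest in replicates 1 and 2, and Peg10 and Ascl2 in replicate 3. Nnat did not pass when 0 h replicate 2 was left out (adjusted p = 0.0514). Mest, Peg10, H19 and Ascl2 did not pass when 0 h replicate 1 or 2 was left out (adjusted p from 0.0773 to 0.261). Mest also failed without 24 h replicate 1 or 2 (adjusted p from 0.0538 to 0.0547). Ascl2 did not pass without any 1 of 6 libraries of other lines (adjusted p from 0.0653 to 0.0681). Nnat lost its line-specific call in 5 of the 13 fits (highest adjusted p = 0.191, without 0 h replicate 2).

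Members of several transcription factor families that the lists above do not cover also rose. Of 16 Sox genes 3 rose and 0 fell (4 rising and 0 falling in replicates 1 and 2, 2 and 0 in replicate 3, 1 to 4 and 0 with 1 library left out). Sox21, a SOX factor of neural and epithelial progenitors, read 2.92 and 2.71 CPM at 0 h and 20, 21.4 and 27.4 CPM at 24 h (3.02 ± 0.33 (SE), adjusted p = 6.23e-04). Sox21 had a line-specific change of 2.56 ± 0.37 (SE), adjusted p = 0.00988. Of 36 nuclear receptors 4 rose and 2 fell (3 rising and 3 falling in replicates 1 and 2, 6 and 2 in replicate 3, 1 to 5 and 1 to 3 with 1 library left out). Nr2e1, the neural stem cell receptor Tailless, had 0 counts at 0 h and 3.82, 3.81 and 2.60 CPM at 24 h, at least 45-fold higher. It had at most 0.0885 CPM in the other lines, and with so few counts the line-specific test could not decide (adjusted p = 1.00). Of 32 other forkhead genes 4 rose, Foxb1, Foxj1, Foxo4 and Foxp1, and 1 fell, Foxn2 (5 rising and 2 falling in replicates 1 and 2, 7 and 2 in replicate 3, 2 to 7 and 0 to 3 with 1 library left out). Foxp1 went from 20.2 and 21.8 to 52.2, 48.4 and 38.7 CPM (1.14 ± 0.16 (SE), adjusted p = 0.00242). Early neural genes had 2 of 24 rising and 2 falling (2 rising and 3 falling in replicates 1 and 2, 1 and 2 in replicate 3, 0 to 5 and 2 to 4 with 1 library left out), and the neuronal tubulin Tubb3 fell from 87.4 and 80 to 6.25, 6.02 and 13.3 CPM (-3.28 ± 0.33 (SE), adjusted p = 4.23e-04). Sox21 lost its line-specific call without 0 h replicate 1 or 2 (adjusted p from 0.0985 to 0.117).

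Solute carriers, which move nutrients and ions across membranes, were the largest list, with 31 of 253 rising and 14 falling (32 rising and 20 falling in replicates 1 and 2, 35 and 14 in replicate 3, 9 to 49 and 5 to 21 with 1 library left out). The glutamine transporters Slc38a3 and Slc38a2 (from 202 and 209 to 561, 556 and 498 CPM; 1.39 ± 0.12 (SE), adjusted p = 2.51e-04) both rose. Slc22a23, an orphan carrier, rose from 2.49 and 3.68 to 53, 53.7 and 34.6 CPM (3.93 ± 0.42 (SE), adjusted p = 5.67e-04). Slc22a23 had a line-specific change of 2.45 ± 0.45 (SE), adjusted p = 0.0253. Slc40a1, the iron exporter ferroportin, rose from 0.957 and 0.678 to 13.5, 12 and 11.3 CPM (3.90 ± 0.31 (SE), adjusted p = 1.58e-04). Slc39a8, a zinc and manganese importer, rose from 0.909 and 0.920 to 23.1, 23.6 and 5.76 CPM (4.25 ± 0.83 (SE), adjusted p = 0.0115). Slc30a2, a zinc exporter, fell from 45.9 and 41.2 to 7.14, 7.25 and 11 CPM (-2.36 ± 0.22 (SE), adjusted p = 2.97e-04). Of 54 potassium channel genes 8 rose and 4 fell (8 rising and 4 falling in replicates 1 and 2, 5 and 2 in replicate 3, 2 to 12 and 0 to 5 with 1 library left out). Kcnk16, a 2-pore channel of pancreatic islets, had 0 counts at 0 h and 3.32, 3.44 and 1.80 CPM at 24 h, at least 36.6-fold higher. Slc39a8 and Kcnk16 did not pass when 0 h replicate 1 or 2 was left out (adjusted p from 0.0652 to 0.125). Slc22a23 lost its line-specific call in 5 of the 13 fits (highest adjusted p = 0.191, without 0 h replicate 1).

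**Figure D3:**
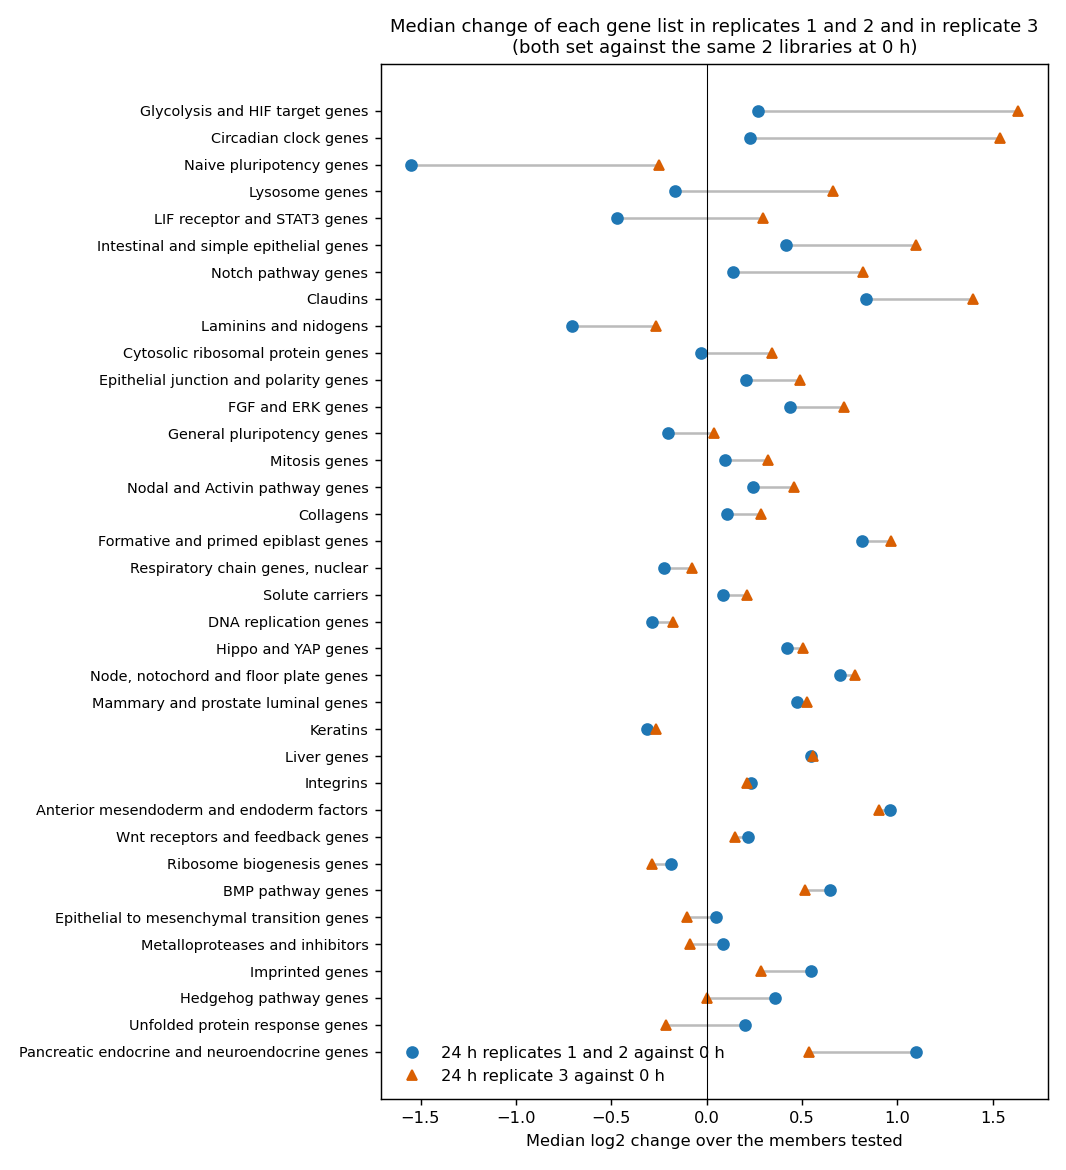
Median log2 change from 0 h over the tested members of 36 gene lists, for 24 h replicates 1 and 2 (blue circles) and 24 h replicate 3 (orange triangles), sorted by the difference. Both are set against the same 0 h libraries. Glycolysis and clock genes lie far to the right in replicate 3 and nearer to 0 in replicates 1 and 2, naive genes lie far to the left in replicates 1 and 2 and nearer to 0 in replicate 3, and the node, Hippo, liver and integrin lists have nearly the same median in both.

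Some programs had more members past the threshold in replicate 3 than in replicates 1 and 2, a difference that was not itself tested. Of 35 glycolysis and HIF target genes, 10 rose in replicate 3 (median 1.63) and 1 in replicates 1 and 2 (median 0.27), and over all 3 libraries 2 rose. Bnip3, a mitophagy receptor induced by HIF, read 33.9 and 42.1 CPM at 0 h and 131, 117 and 632 CPM at 24 h. Pfkfb3, an activator of glycolysis, read 11.9 and 14.5 CPM at 0 h and 29.4, 31.5 and 167 CPM at 24 h. Neither passed over all 3 libraries (adjusted p = 0.102 and 0.114). Mxi1, a repressor of the MYC network, did pass over all 3 libraries: it read 33.8 and 36.1 CPM at 0 h and 135, 126 and 98.4 CPM at 24 h (1.78 ± 0.30 (SE), adjusted p = 0.00582). Mxi1 had a line-specific change of 1.75 ± 0.35 (SE), adjusted p = 0.0335. Clock genes had 9 of 19 rising in replicate 3 and 2 in replicates 1 and 2, among them Dbp and Per1. Dbp read 4.59 and 4.11 CPM at 0 h and 6.25, 7.42 and 19.6 CPM at 24 h. Per1 read 13.1 and 16 CPM at 0 h and 21.1, 22.6 and 57.2 CPM at 24 h. Both passed in replicate 3 (adjusted p = 0.0167 and 0.0251) but not in replicates 1 and 2 (adjusted p = 0.348 and 0.414). Mitosis genes had 9 of 30 rising in replicate 3 and 0 in replicates 1 and 2, and lysosome genes 6 and 2 of 27. Sqstm1, the autophagy receptor p62, rose in all (from 134 and 133 to 211, 216 and 253 CPM; 0.76 ± 0.13 (SE), adjusted p = 0.00488). Tfeb, the factor that controls lysosome genes, fell in all (from 40.9 and 38 to 3.77, 3.81 and 6.24 CPM; -3.09 ± 0.27 (SE), adjusted p = 2.32e-04). Depth and the level of Foxa1 both differ between replicate 3 and the others, and the labels do not say whether its culture differed too. These differences cannot be told apart here, and their part in these counts was not tested. Mxi1 and Sqstm1 did not pass when 0 h replicate 1 or 2 was left out (adjusted p from 0.0654 to 0.0797). Mxi1 lost its line-specific call in 10 of the 13 fits (highest adjusted p = 0.215, without 0 h replicate 1).

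Across all genes, 5 were called in opposite directions in the 2 checks, and Aldh1l1, a folate enzyme, was the only one in a list. It read 12.3 and 11.5 CPM at 0 h and 6.7, 7.25 and 24.3 CPM at 24 h, a log2 change of -0.77 in replicates 1 and 2 and 1.02 in replicate 3. The 4 others were Homer2, Nxf3 and Pnma5, higher in replicates 1 and 2, and Top3b, higher in replicate 3.

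None of 81 cytosolic ribosomal protein genes, 78 nuclear respiratory chain genes, 13 mitochondrially encoded genes or 13 heat shock genes passed over the 3 libraries with edgeR, where 4911 of 19819 genes had an unadjusted p under 0.05. DNA replication genes fell in 5 of 35 and rose in 0 (0 rising and 6 falling in replicates 1 and 2, 0 and 8 in replicate 3, 0 and 0 to 9 with 1 library left out). Rrm2, a subunit of ribonucleotide reductase, fell from 557 and 565 to 385, 379.6 and 329 CPM (-0.62 ± 0.13 (SE), adjusted p = 0.0146). Ribosome biogenesis genes fell in 2 of 26, Rrp12 and Wdr12 (0 rising and 2 falling in replicates 1 and 2, 0 and 4 in replicate 3, 0 and 0 to 3 with 1 library left out). Interferon-stimulated genes moved both ways, 5 of 23 rising and 4 falling (4 rising and 6 falling in replicates 1 and 2, 3 and 3 in replicate 3, 1 to 7 and 2 to 6 with 1 library left out). Bst2, or tetherin, rose from 14.6 and 15.9 to 36.6, 39.9 and 42.9 CPM (1.39 ± 0.12 (SE), adjusted p = 2.00e-04). Irf9, part of the interferon-activated ISGF3 complex, fell from 14.3 and 15.8 to 6.05, 5.96 and 6.74 CPM (-1.27 ± 0.19 (SE), adjusted p = 0.00281). Rrm2 did not pass when 0 h replicate 1 or 2 was left out (adjusted p from 0.113 to 0.119).

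Replicate 3 had less Foxa1 than replicates 1 and 2, and the risen genes lay on both sides of the other 24 h libraries there. Of the 1312 genes that rose, replicate 3 was below both other 24 h libraries in 600, above both in 607 and between them in 105, and its median level was 100.2% of their mean (quartiles 74.4% and 125%). Among the 193 that rose and were also higher in the line-specific test, it was below both in 103 and above both in 78, with a median of 93.5%. Over all 19819 genes it was below both in 8753 and above both in 8681. In CPM, single genes ranged widely around the 31.4% of Foxa1. Lhx1 (7.11%), Shh (12.9%), Nnat (16.4%), Zbtb16 (16.9%) and Calca (28.3%) were as low or lower. Bmp7 (44.2%), Hey1 (45.2%), Pkd1l1 (52.6%), Emp2 (53.9%) and Chrd (54.3%) stood in between. Pla2g7 (81.8%), Sel1l (102%), Slc38a3 (111%), Krt7 (111%) and Pcsk1 (112%) were near the level of the other libraries. These genes were set in order after their values were seen, and depth differs between the same libraries as Foxa1, with its part not tested. The order also depends on the measure. In deposited TPM, Foxa1 read 130.7, 136.6 and 21.83 in replicates 1, 2 and 3 at 24 h. Slc38a3 read 46.62, 44.80 and 38.46 TPM and Per2 12.15, 12.16 and 10.61 TPM, both lowest in replicate 3. Cldn10 was highest in replicate 3 by both measures (3.943, 2.866 and 5.145 TPM).

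**Figure D4:**
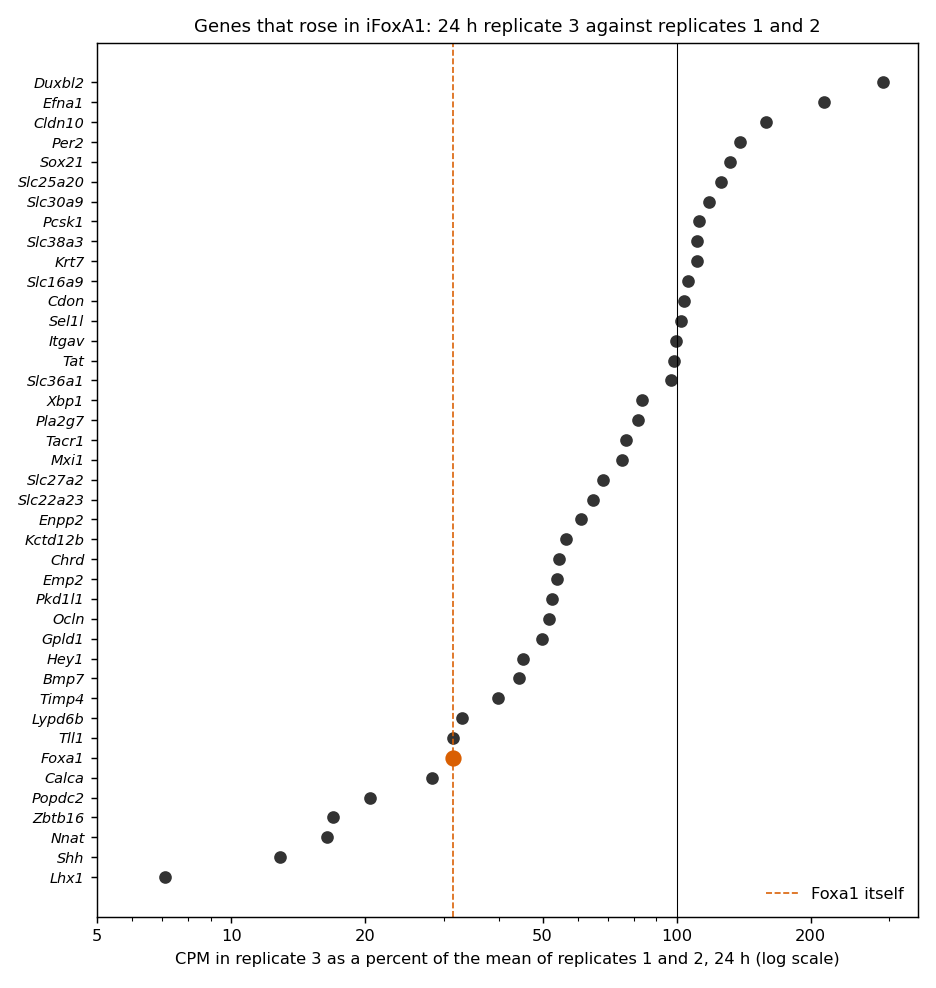
CPM in 24 h replicate 3 as a percent of the mean of replicates 1 and 2 (log axis) for 41 genes. They are the 15 largest rises and every list member that rose and was higher in the line-specific test. The dashed line marks Foxa1 at 31.4% and the solid line 100%. Lhx1, Shh, Nnat, Zbtb16, Popdc2 and Calca lie to the left of Foxa1, and Krt7, Pcsk1, Per2 and Cldn10 lie to the right of 100%.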

How the data were processed

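RNA-seq of 17 libraries from 5 Dox-regulated mouse ES lines was used, 5 of them iFoxA1. The authors deposited estimated counts and TPM per transcript. Salmon 1.4.0, DESeq2 1.30.1 and mm10 are named in the submitters' processing notes, and for the transcript annotation none is named there (not given in the sources used here). TPM as deposited was not used in a test. Transcript counts were summed per gene with GENCODE M21, which matched 137225 of 137271 transcripts, and rounded. The unmatched transcripts held at most 0.0133% of a library, and 0 columns were left unmapped. Reads that fit several transcripts are shared by estimation, so near-identical genes are uncertain.

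edgeR 4.0.16 (R 4.3.3) kept 19819 genes by its filter on low counts, scaled by TMM and fitted its quasi-likelihood model to all 17 libraries in 10 groups of line and time (7 residual degrees of freedom). A fit with replicate 3 as a group of its own had 11 groups and 6 degrees of freedom. P-values were adjusted by Benjamini-Hochberg over all genes, with a threshold of 0.05. The SE is the log2 change divided by the root of its F statistic. Folds against 0 counts use a floor of 3 counts over the group. Ratios against 1 count have 95% exact intervals, which cover counting error only. Both pool the iFoxA1 libraries of each time and are not values for replicate 3 alone. The scripts were tested on simulated data.

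Named were the 15 largest rises and falls among called protein-coding genes with no overlap between times and a mean of at least 5 CPM, members of 73 lists by role, Foxa1, Shh, Lhx1 and Calca, and list members called in opposite directions. The members and lists were chosen with earlier results of these data known. Alternatives were DESeq2 1.42.0, other scalings and filters, fewer libraries, a library set term, a replicate block and a fold threshold.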

Additional observations from a re-analysis of the deposited data

Results flagged for a closer look

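Of the genes named above, those listed here changed differently in iFoxA1 than in the mean of the 4 other lines, with edgeR's adjusted p under 0.05 for that difference. Each value is the line-specific log2 change. Among the higher ones, genes of secreted factors, receptors and their processing stood beside keratin and transport genes, from Pkd1l1 (6.60), Zbtb16 (6.31), Tat (5.30), Calca (5.20), Emp2 (5.09), Tll1 (4.92), Timp4 (4.74), Nnat (4.45) and Pcsk1 (3.64). Smaller positive differences were those of Slc38a3 (3.46), Kctd12b (3.38), Hey1 (3.17), Krt7 (3.13), Lefty1 (2.88), Pla2g7 (2.86), Sox21 (2.56), Slc22a23 (2.45) and Chrd (2.43). The remaining positive differences were Bmp7 (2.27), Ocln (1.86), Mxi1 (1.75), Itgav (1.34), Xbp1 (1.05), Sel1l (0.80) and Cdon (0.80). Pkd1l1 and Kctd12b have almost no counts at 0 h, so that their fitted values depend on the small count that the fit adds. Among the lower ones were Car4 (-5.17), Tal1 (-4.87), Syt13 (-3.79), Fgf5 (-3.14), Fgf17 (-3.12), Col5a2 (-2.96), Pou3f1 (-2.94), Tgfbi (-2.67), Gli1 (-2.28) and Calml4 (-2.24). Smaller negative differences were those of Axin2 (-1.90), Car3 (-1.83), Gbx2 (-1.78), Slc30a2 (-1.60), Grhl2 (-1.59), Bcl3 (-1.52), Dnmt3b (-1.49), Agrn (-1.25), Vim (-0.99), Rrm2 (-0.91) and Sparc (-0.81). The formative genes Pou3f1, Car4, Fgf5 and Dnmt3b ended below every other line at 24 h, and for Pou3f1, Car4 and Fgf5 this was a smaller rise and not a fall. The differences of Car4, Grhl2, Pou3f1 and Syt13 passed in all 13 fits that left out 1 library. Each of the others stopped passing without 0 h replicate 1 or 2, or without either. Among those for which the report gives no such loss, Lefty1, Gbx2, Col5a2 and Car3 stopped passing in 10 of the 13 fits (highest adjusted p = 0.258, for Car3), Agrn in 9, Bcl3 in 5, Rrm2 and Slc30a2 in 4, Pla2g7, Slc38a3 and Kctd12b in 2 and Tal1 in 1.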

How the results depend on the processing

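The number of genes called depended most on which libraries entered. With 1 library left out in turn, 322 to 1995 genes rose and 229 to 1296 fell between 0 h and 24 h, 497 to 2871 rose and 319 to 2533 fell in replicates 1 and 2, 432 to 3990 rose and 211 to 2761 fell in replicate 3, and 18 to 768 were higher and 32 to 772 lower in the line-specific test. The fewest came without a 0 h library of iFoxA1, which leaves 1 library at 0 h, assumed to vary like the other groups, except that the fewest falling in replicates 1 and 2 came without 24 h replicate 1. The most came without one of the iFoxL2 libraries at 24 h, and the cause was not tested. With DESeq2, 743 genes were higher and 698 lower in the line-specific test, and 1742 fell in replicate 3. Without a filter on low counts the line-specific counts were 143 and 163, with more genes tested. A term for the deeper libraries gave 1993 rising and 1650 falling genes, and 738 higher and 807 lower ones in the line-specific test. Replicates 1 and 2 of iFoxA1 fitted alone gave 4746 and 4540. A test for changes above 1.5-fold, stricter by construction, gave 570 and 316. The cause of the other differences was not tested. Library totals in place of TMM and DESeq2's size factors in edgeR kept all 8 counts within 1.5 times.

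The labels do not say whether replicates of the same number belong together. The deviations of replicate 1 and 2 from their group means correlated at 0.036 between 0 h and 24 h over 19819 genes. This is a description from a single difference at each time, and it cannot exclude a pairing. With a replicate block 1064 genes rose and 711 fell. For the 192 genes named with values, 10443 results under an alternative were compared with the reported one: 9159 kept their direction and their side of the threshold, 1241 no longer passed, 42 passed in addition and 1 reversed. The reversed one was Aldh1l1, which fell without 24 h replicate 3 (log2 change -0.76, adjusted p = 0.0421, against 0.41 without 24 h replicate 1). Replicate 3 cannot be left out of its own comparison, and it was not fitted with the iFoxA1 libraries alone. Of the genes that rose, 36 had 0 counts at 0 h, where a depth near 20 M counts a library limits what can be seen.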
